A study of Mus musculus with 48 samples.

Results

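Kidneys of nephritic NZB/W F1 mice were compared with kidneys of young mice of the same strain at zeitgeber time (ZT) 4, which is 4 h after lights on and lies in the rest phase of these nocturnal animals. The members were all samples whose source name gives ZT-4 and the diagnosis: 3 nephritic and 4 young kidneys, 7 of the 48 arrays of the series. NZB/W F1 mice, the cross of the NZB and NZW strains, develop a spontaneous lupus-like disease with immune complex glomerulonephritis, and every group shares this genotype. The young mice were 12 weeks old. The nephritic mice were older, per the study's methods, and their kidneys were taken 2 to 3 weeks after proteinuria had passed 300 mg/dl, while blood urea nitrogen was still below 25 mg/dl. No label of these 7 arrays names a treatment, and all kidneys were perfused before RNA was taken. Age and nephritis therefore cannot be told apart in any difference given here. Each array is a separate kidney sample on an Illumina MouseRef-8 bead array. The tissue was whole, so that fewer cells of a type and less RNA per cell cannot be told apart either.

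In lupus nephritis, immune complexes lodge in the glomerulus, complement and Fc receptors are engaged, and monocytes, T cells, B cells and plasma cells enter the tissue. The tubules, above all the proximal tubule, depend on mitochondrial oxidation of fatty acids to power reabsorption, and they shed these functions when injured. Nearly all kidney cells also run the circadian clock, in which ARNTL (BMAL1) with CLOCK or NPAS2 switches on Per, Cry and Nr1d genes, whose products act back on that pair.

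Values are normalized signals on a log2 scale, and differences are nephritic minus young with their standard errors from limma. Adjusted p-values are limma's with Benjamini-Hochberg adjustment over the 9708 genes tested, which were those detected on at least 3 of the 7 arrays, and a gene is said to rise or fall when that p was under 0.05. A probe is called detected on an array when its detection p-value was under 0.05. The labels do not say that replicates were more than separate samples of a group, so the p-values measure the spread between samples within groups. That spread was pooled over all 48 arrays of the series and was not taken from the 7 ZT4 arrays alone. A standard error can therefore be larger or smaller than the spread of the ZT4 values given beside it. The tissue read as kidney in both groups. Umod, the thick limb protein uromodulin, measured 13.68, 13.76, 13.60 and 13.75 on the young arrays and 13.57, 13.78 and 13.47 on the nephritic arrays, the phosphate transporter Slc34a1 13.89, 13.95, 13.91 and 13.94 on the young arrays and 14.002, 13.97 and 13.94 on the nephritic arrays, and the water channel Aqp2 of the collecting duct 8.69, 9.02, 8.88 and 8.52 on the young arrays and 9.50, 9.53 and 9.33 on the nephritic arrays. The mean level of 27 proximal tubule markers lay between 10.5 and 10.6 on the young arrays and between 9.51 and 9.85 on the nephritic arrays.

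The 7 arrays differed in more than the diagnosis. Median deposited signals were 110.5 to 113.5 on the young arrays and 98.1 to 100.7 on the nephritic arrays, and 13276 to 13863 against 12706 to 13065 probes were detected. Correlations between arrays over the tested genes were 0.988 to 0.994 among the young, 0.975 to 0.987 among the nephritic and 0.896 to 0.942 across the groups, and no 2 arrays were identical. Titles carry a code that is CR1 for all 4 young arrays, CRS4 for nephritic replicates 1 and 2 and CRS5 for replicate 3, so code and diagnosis cannot be told apart at ZT4. All 3 nephritic arrays also read low for Pabpc1, the cytoplasmic poly(A)-binding protein that sits on the tail of most mRNAs. Pabpc1 measured 9.02, 8.72, 9.04 and 9.07 on the young arrays and 6.08, 6.09 and 6.22 on the nephritic arrays, a 7.13-fold lower level. The same low reading was found on all 3 nephritic arrays at ZT0 (5.97, 6.45 and 5.94) and on replicate 3 at ZT16 (6.56) and at ZT20 (6.69). These 8 arrays lay below 7.5. On the remaining 14 nephritic arrays Pabpc1 lay between 8.20 and 9.51, and on the young arrays of all times between 8.52 and 9.37. The fall of Pabpc1 rested on the brightest of its probes: the other 2, at 5.05 and 4.68 in the young group, differed by -0.17 and -0.31 and did not pass. No comparison at ZT4 can be made without arrays of this kind, and most lists of genes are therefore also given at ZT8, where no nephritic array was low in Pabpc1, and with a term for the 8 low arrays in the fit (the Pabpc1 term). That term could be estimated only at ZT16 and ZT20, the 2 times that hold both kinds of nephritic array, with 1 low array each, and the part of low Pabpc1 in the differences was not tested otherwise. A call lost with that term therefore need not mean a small difference.

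Of the 9708 genes, 3298 were higher in nephritic kidneys (34% of those tested) and 2251 were lower (23.2%), while 4159 did not pass. These shares of 34% and 23.2% stand behind the counts of every list below. At least 2-fold rises numbered 830 and falls 856, at least 4-fold 111 and 149, and at least 8-fold 15 and 23. The 3 nephritic values all lay above the 4 young ones for 3505 genes (36.1%) and all below for 2475 (25.5%), which is the order that gives the smallest p this design allows in the exact Mann-Whitney test, 0.0571 two-sided. The median difference over all genes was 0.14, and 0.03 when arrays were scaled to equal medians without the quantile step. With the Pabpc1 term the counts fell to 726 higher and 680 lower, of which 675 and 645 were among the genes called without it, and when arrays were blocked by title code they were 2033 and 1497.

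The largest rises included genes of leukocytes, antibody secretion and injured tubules. Fcgr4, a receptor through which myeloid cells bind IgG, measured 6.43, 6.01, 5.91 and 5.80 on the young arrays and 11.04, 9.94 and 10.49 on the nephritic arrays, a 21.9-fold rise (4.45 ± 0.51, adjusted p = 2.06e-08). Timp1, an inhibitor of matrix metalloproteinases, measured 4.73, 4.498, 4.73 and 4.71 on the young arrays and 8.62, 8.30 and 8.36 on the nephritic arrays (3.76 ± 0.84, adjusted p = 2.66e-04). For both genes the lowest nephritic array stood more than 3 log2 units above the highest young array. Fpr2, a formyl peptide receptor of phagocytes, was not well above background on any young array and at 9.50, 8.62 and 8.39 on the nephritic ones, at least 18.7-fold higher. Mzb1, which helps plasma cells fold and secrete antibody, was the least even of the group at 10.75, 6.90 and 8.09 on the nephritic arrays against 4.94 to 5.23 in young kidneys (3.49 ± 0.76, adjusted p = 1.83e-04).

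**Figure D1:**
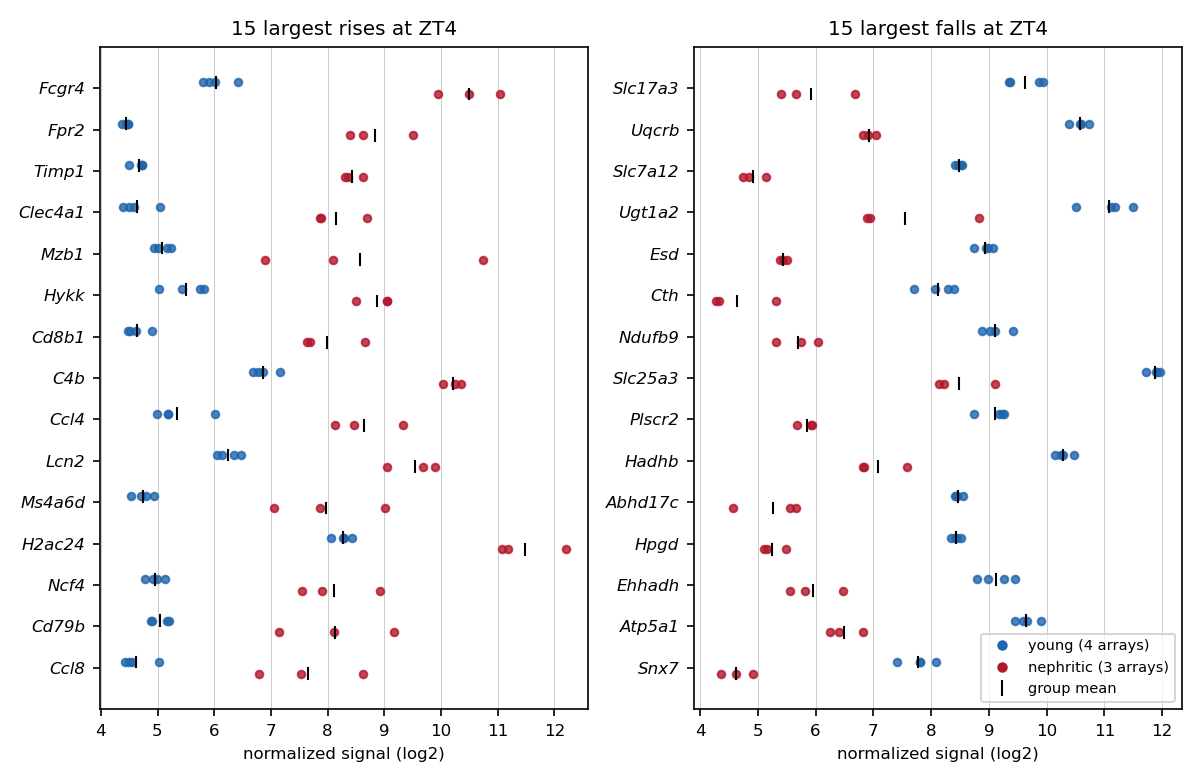
Normalized log2 signal (horizontal axis) of the 15 genes with the largest rises (left) and the 15 with the largest falls (right) at ZT4, chosen by the size of the difference. Each dot is 1 array, blue for the 4 young and red for the 3 nephritic kidneys, and black ticks are group means. Groups do not overlap for any of them by the rule of choice, and Mzb1 spreads from 6.90 to 10.75 among nephritic kidneys.

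The other genes of this set were the myeloid lectin Clec4a1 (3.51), the CD8 chain Cd8b1 (3.36), complement C4b (3.34), the chemokines Ccl4 (3.30) and Ccl8 (3.02), the injury protein Lcn2 (3.29), the macrophage gene Ms4a6d (3.24), the oxidase subunit Ncf4 (3.17), the B cell receptor chain Cd79b (3.10), the histone gene H2ac24 (3.22) and Hykk (3.37), which encodes hydroxylysine kinase. Clec4a1 and Ccl8 were detected on 1 young array each and Cd8b1 on 2. Histone H2A, Fc receptor and Ccl genes have close copies that a probe can share, so those values are uncertain as to the gene. At ZT8 all of these except Hykk differed by 2.31 (Ncf4) to 4.10 (Lcn2), and the test of ZT4 against ZT8 was not passed by any of them.

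By cell type, 16 of 19 tested myeloid markers rose and none fell, against 34% of all genes that rose, with a median difference of 1.74. T cell markers rose in 10 of 11 (median 1.85) and B and plasma cell markers in 5 of 6 (median 2.03). Examples are the macrophage gene Ms4a7 (2.93 ± 0.45, adjusted p = 1.77e-06), the leukocyte gene Lst1 (2.85 ± 0.41, adjusted p = 4.92e-07) and the T cell receptor complex gene Cd3d (2.66 ± 0.47, adjusted p = 1.32e-05). Cd6, a T cell surface receptor, and Pou2af1, a B cell transcriptional coactivator, were below background on every young array and at least 4.16-fold higher in nephritic kidneys. The mean log2 level of the myeloid list ran from 6.76 to 6.84 on young and from 8.34 to 9.23 on nephritic arrays, that of the T cell list from 4.59 to 4.76 and from 5.93 to 6.995, and that of the B and plasma cell list from 5.71 to 5.80 and from 6.74 to 8.95. Nephritic replicate 1 was the highest for every gene of this paragraph. At ZT8 the medians were 2.05, 1.22 and 1.91. Without background correction the medians at ZT4 were 0.96, 0.82 and 0.88, and 15, 10 and 4 markers rose. With the Pabpc1 term they were 0.36, 0.89 and 1.37, and the markers that rose numbered 2, 0 and 1 (7, 2 and 2 at an unadjusted limma p under 0.05).

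The neutrophil list was short and mixed. Of 5 tested markers 4 rose, but Lcn2, which injured tubules also make, led at 3.29, and the others rose by 0.58 to 0.83. The median was 0.67 at ZT4, 0.28 at ZT8 and 0.31 at ZT0, and 1 marker rose with the Pabpc1 term.

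Chemokines rose in 13 of 18 tested genes and fell in none (median 1.36, at ZT8 1.43), but with the Pabpc1 term the median was 0.34 and none passed in limma (3 were higher at an unadjusted p under 0.05). Cxcl13, which draws B cells into follicles, was below background on all young arrays and measured 7.999, 6.04 and 6.19 on nephritic ones, at least 4.37-fold higher. Cxcl1, a neutrophil attractant, measured 5.66, 5.83, 6.74 and 6.71 on the young arrays and 9.42, 8.65 and 8.13 on the nephritic arrays (2.50 ± 0.75, adjusted p = 0.0046). Both had their highest value in nephritic replicate 1. Among inflammatory and adhesion genes of the NF-kB list, 12 of 20 rose and 1 fell, with Il1b, the secreted cytokine interleukin-1 beta, at 2.36 ± 0.41, adjusted p = 8.81e-06 and the leukocyte adhesion receptor Icam1 at 1.71 ± 0.33, adjusted p = 3.68e-05. The list had a median of 1.09 at ZT4 and 1.08 at ZT8. Given the Pabpc1 term it was 0.40, and again none passed (1 higher and 1 lower at an unadjusted p under 0.05).

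Complement was split. The 3 chains of C1q, the molecule that recognizes immune complexes, rose together: C1qb measured 7.02, 7.10, 6.98 and 6.71 on the young arrays and 10.33, 9.55 and 9.66 on the nephritic arrays (2.90 ± 0.41, adjusted p = 4.42e-07), with C1qc at 2.40 and C1qa at 2.36. Complement C4b, the next step of the classical pathway, measured 6.78, 7.16, 6.68 and 6.86 on the young arrays and 10.36, 10.25 and 10.03 on the nephritic arrays. Both steps were thus at least 5-fold higher with no overlap between groups. In all, 7 of 12 tested genes rose and 2 fell, against 34% and 23.2% of all genes (median 0.74, at ZT8 0.96 and with the Pabpc1 term 0.20). Cfb, factor B of the alternative pathway, measured 7.44, 7.24, 7.39 and 7.87 on the young arrays and 5.63, 5.76 and 5.70 on the nephritic arrays (-1.79 ± 0.35, adjusted p = 5.40e-05) and at ZT8 differed by -0.26. Cd55, which breaks up complement convertases on cells, differed by -0.59 ± 0.25, adjusted p = 0.0368, a call lost without young replicate 1 or 4 or nephritic replicate 2 or 3 (adjusted p = 0.0967, 0.0949, 0.137 and 0.0924) and when blocked by title code (0.207). Of this list, only C4b passed as higher with the Pabpc1 term (2.42) and Cfb turned to a difference of 0.47, adjusted p = 0.203.

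Antigen presentation genes rose more often than they fell. Of 10 tested MHC class II genes 9 rose (median 1.39, at ZT8 1.496), led by the invariant chain Cd74 at 10.47, 10.57, 10.59 and 10.39 on the young arrays and 13.01, 12.25 and 11.98 on the nephritic arrays (1.90 ± 0.37, adjusted p = 3.98e-05). H2-Ab1, a class II beta chain, differed by 1.81 and Ciita, the master regulator of class II genes, by 1.51. Of 14 class I and immunoproteasome genes 8 rose and 1 fell (median 0.84, at ZT8 0.80), led by Nlrc5, the class I transactivator, at 2.12, and by the immunoproteasome subunit Psmb10 at 1.48. Allowing for low Pabpc1 in the fit, the class II median was 0.43 and 0 genes passed in limma or reached an unadjusted p under 0.05, and the class I median was 0.09 with 1 higher and 1 lower. Histocompatibility genes are highly similar and vary among strains, so which member a probe reads is uncertain. Another H2-Ab1 probe differed by 1.39 and passed, and a further one by 0.12, which did not pass.

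Interferon-stimulated genes rose in 17 of 30 tested, fell in 3 and did not pass in 10, with a median of 0.74. At ZT8 the median was 1.02, and 21 rose and none fell. Interferon acts on many of these genes through a promoter element with repeated GAAA, and the promoters of named members with GAAA, any 2 bases, then GAAA are shown for that reason. RefSeq promoters (GRCm38.p6, 250 bases before the start and 50 after it) were found for 21 of the 30 genes, and the motif, searched on both strands, was present in 12, or 57.1%, against 3.99% of all 27025 genes with a promoter and 3.44% of all 32851 promoters. It was found in 6 of 9 genes that rose, 2 of 3 that fell and 4 of 9 that did not pass. A match is a description of the letters, not of a site in use. The 250 bases before the start are printed on the strand of the gene, with the motif in capitals, where overlapping matches run together.
Oas1g (chr5:120887614-120887863, minus strand): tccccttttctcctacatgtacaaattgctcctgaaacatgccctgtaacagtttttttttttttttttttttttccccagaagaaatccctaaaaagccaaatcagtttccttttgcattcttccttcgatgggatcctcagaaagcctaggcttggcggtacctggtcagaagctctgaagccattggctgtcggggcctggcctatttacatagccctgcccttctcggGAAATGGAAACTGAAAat
Bst2 (chr8:71537473-71537722, minus strand): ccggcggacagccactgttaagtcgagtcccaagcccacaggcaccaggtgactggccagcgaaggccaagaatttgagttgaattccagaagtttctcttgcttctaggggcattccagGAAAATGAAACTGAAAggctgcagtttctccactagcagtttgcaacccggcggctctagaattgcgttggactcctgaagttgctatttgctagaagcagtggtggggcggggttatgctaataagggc
In Oas1g the matches end 3 bases before the start, and in Bst2 115 bases before it.

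Oas1g, a sensor of double-stranded RNA, measured 5.91, 5.55, 5.74 and 5.18 on the young arrays and 8.15, 7.31 and 6.59 on the nephritic arrays (1.75 ± 0.43, adjusted p = 6.70e-04). Another, dim probe of Oas1g differed by 0.56 and did not pass. Bst2, the antiviral membrane protein tetherin, measured 6.94, 6.75, 6.60 and 5.78 on the young arrays and 8.83, 7.74 and 7.74 on the nephritic arrays (1.59 ± 0.26, adjusted p = 3.82e-06). Oas2, of the same enzyme family as Oas1g, measured 5.03, 4.75, 4.84 and 4.64 on the young arrays and 7.97, 7.34 and 5.83 on the nephritic arrays (2.23 ± 0.41, adjusted p = 2.09e-05), and the RNA helicase Dhx58 differed by 1.75 ± 0.33, adjusted p = 3.56e-05. In all 4 the order among nephritic kidneys put replicate 1 first and, but for Bst2, replicate 3 clearly last. The 3 falls were Parp12, of the poly(ADP-ribose) polymerase family (-1.30 ± 0.15, adjusted p = 3.03e-08), the RNA sensor Ddx58 (-0.94 ± 0.15, adjusted p = 3.45e-06) and the guanylate-binding protein Gbp3 (-0.75 ± 0.22, adjusted p = 0.0036). Parp12 and Ddx58 were detected on all young arrays and 1 nephritic array, and Gbp3 lost its call without nephritic replicate 3 (-0.44, adjusted p = 0.0936). At ZT8 Parp12 and Ddx58 differed by 0.16 and 0.25, and both passed the test of ZT4 against ZT8. With the Pabpc1 term the list kept a median of 0.48, but 2 genes rose and 3 fell, Bst2 among the rises and Parp12, Ddx58 and Gbp3 the falls. Oas1g (0.56, adjusted p = 0.565), Oas2 (0.68, 0.414) and Dhx58 (0.82, 0.244) did not pass there.

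Among tubular injury genes 9 of 22 rose, against 34% of all genes, and 3 fell (median 0.84, at ZT8 1.18). None rose and 1 fell once the Pabpc1 term was in the fit (median 0.26, with 1 higher at an unadjusted limma p under 0.05). Lcn2 measured 6.47, 6.05, 6.14 and 6.35 on the young arrays and 9.89, 9.69 and 9.04 on the nephritic arrays, and Cd44, an adhesion receptor of injured epithelium and leukocytes, measured 4.998, 5.03, 4.71 and 4.61 on the young arrays and 7.62, 6.83 and 7.07 on the nephritic arrays (2.34 ± 0.42, adjusted p = 1.38e-05). Havcr1 (KIM-1), the proximal tubule injury receptor, fell, from 8.84, 8.70, 8.79 and 8.90 to 7.18, 6.65 and 7.62 (-1.66 ± 0.49, adjusted p = 0.00386). At ZT8 it differed by -0.29 (adjusted p = 0.637), and the test of ZT4 against ZT8 was not passed. Matrix genes rose in 13 of 25 and fell in 2 (median 0.92, at ZT8 0.78 and with the Pabpc1 term 0.21, with 1 rise left), with Col1a1, a fibrillar collagen chain, at 2.28 ± 0.62, adjusted p = 0.0019 and the membrane metalloproteinase Mmp14 at 2.19 ± 0.46, adjusted p = 1.41e-04. Col4a3, a collagen chain of the glomerular basement membrane, was the larger of the 2 falls (-1.20 ± 0.31, adjusted p = 0.00124). Fibroblast and mural cell markers rose in 9 of 13 and fell in 1, with medians of 0.92, 0.61 at ZT8 and 0.47 with the Pabpc1 term, where 1 rose. The smooth muscle actin gene Acta2 measured 10.01, 10.01, 10.35 and 9.97 on the young arrays and 11.57, 11.39 and 10.63 on the nephritic arrays (1.11 ± 0.34, adjusted p = 0.00497), but of its 3 other probes 1 rose by 1.32 and 2 differed by -0.42 and -0.51 and did not pass, and its call was lost when blocked by title code (adjusted p = 0.0532). Thy1, a marker of fibroblasts and also of T cells, rose by 2.07.

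Cell cycle genes rose in 17 of 26 and fell in 3 (median 0.86, at ZT8 0.82). Cdc20, the activator of the anaphase-promoting complex, measured 5.35, 5.84, 5.12 and 5.50 on the young arrays and 8.10, 8.22 and 7.60 on the nephritic arrays (2.52 ± 0.33, adjusted p = 1.91e-07). Mcm7, a subunit of the replicative helicase detected on 1 young array, measured 4.59, 4.74, 4.58 and 4.58 on the young arrays and 6.58, 7.15 and 6.87 on the nephritic arrays, and its rise of 2.25 was larger than that at ZT8 (1.07, adjusted p of the difference = 0.0244). Tyms, the thymidylate synthase that supplies DNA synthesis, fell instead (-1.18 ± 0.18, adjusted p = 1.60e-06). Cdc20 and Mcm7 had no overlap between groups and were among the 5 genes of the list that rose with the Pabpc1 term, where 1 fell and the median was 0.46. Stress-induced genes such as Klf6, an early transcription factor, rose by 1.82, and Socs3, a feedback inhibitor of cytokine signals, by 1.85. Of 24 immediate early genes, however, only 6 rose, 1 fell and 17 did not pass, shares below the 34% and 23.2% of all genes. Their median was 0.27, at ZT8 0.24 and with the Pabpc1 term 0.39, where 1 rose and 2 fell.

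**Figure D2:**
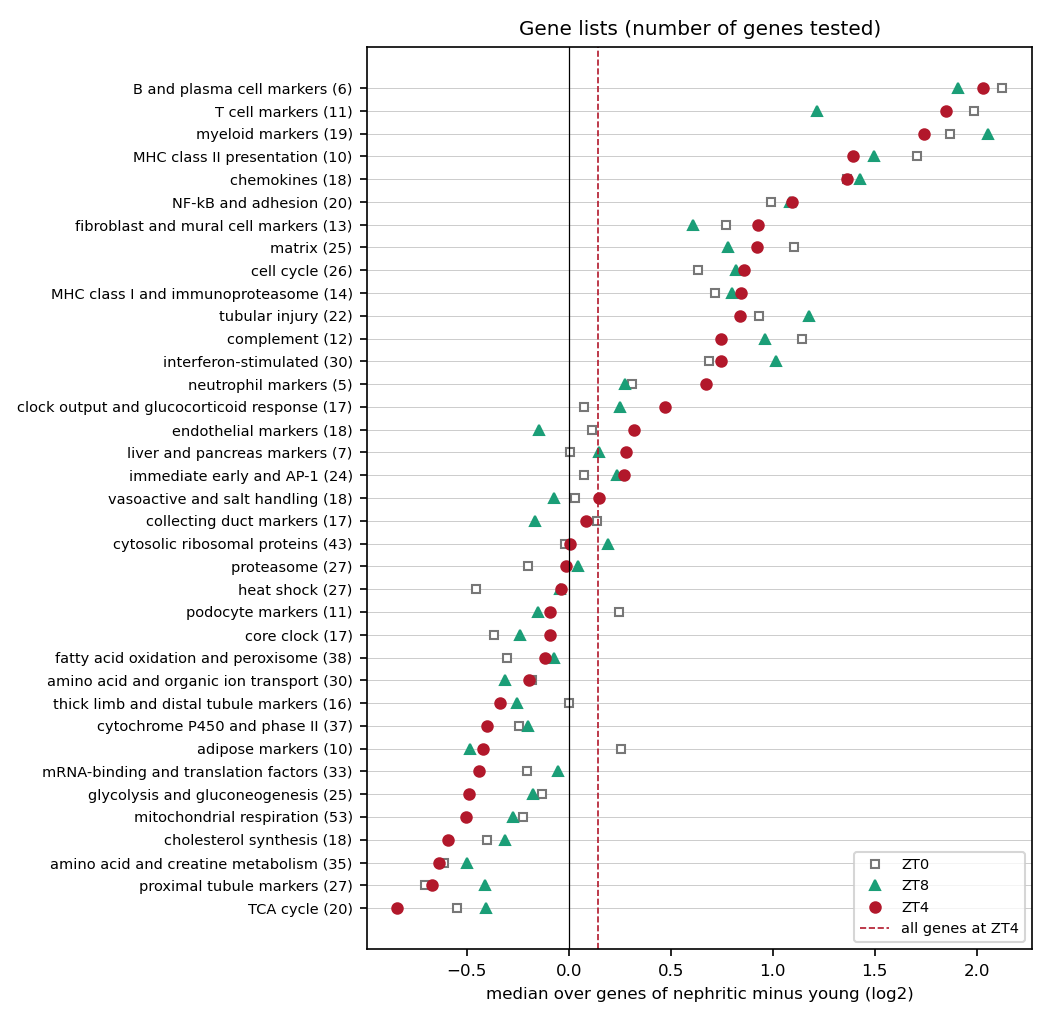
Median difference, nephritic minus young on the log2 scale (horizontal axis), over the tested genes of each list with at least 5, whose number stands in brackets. Red circles are ZT4, green triangles ZT8 and open squares ZT0, and the dashed line is the median of all genes at ZT4 (0.14). Myeloid, T cell, B and plasma cell, chemokine and MHC class II lists lie at 1.22 or above at all 3 times, the neutrophil list at 0.28 and 0.31 at ZT8 and ZT0, and the TCA cycle is lowest at ZT4 (-0.84).

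The largest falls included transporters, mitochondrial proteins and enzymes of metabolism. Slc17a3, an organic anion and phosphate transporter of the proximal tubule, measured 9.36, 9.36, 9.94 and 9.87 on the young arrays and 5.401, 5.67 and 6.68 on the nephritic arrays, a 13.1-fold fall (-3.72 ± 0.52, adjusted p = 3.85e-07). Uqcrb, a subunit of respiratory complex III, measured 10.59, 10.38, 10.59 and 10.73 on the young arrays and 6.82, 6.90 and 7.05 on the nephritic arrays, a 12.5-fold fall (-3.65 ± 0.49, adjusted p = 1.91e-07). Hadhb, the beta subunit of the mitochondrial trifunctional protein of fatty acid oxidation, measured 10.48, 10.14, 10.29 and 10.26 on the young arrays and 6.81, 6.84 and 7.59 on the nephritic arrays (-3.21 ± 0.42, adjusted p = 1.52e-07). The nephritic arrays were close together for Uqcrb, whereas replicate 3 was the highest for Slc17a3 and Hadhb.

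The rest of the 15 largest falls were the amino acid transporter Slc7a12 (-3.58), the glucuronidating enzyme Ugt1a2 (-3.52), esterase Esd (-3.49), Cth of cysteine synthesis (-3.48), complex I subunit Ndufb9 (-3.41), the mitochondrial phosphate carrier Slc25a3 (-3.39), the scramblase Plscr2 (-3.26), the depalmitoylase Abhd17c (-3.21), Hpgd, which inactivates prostaglandins (-3.18), the peroxisomal enzyme Ehhadh (-3.17), ATP synthase subunit Atp5a1 (-3.16) and the sorting nexin Snx7 (-3.15). Slc7a12 and Abhd17c were detected on 2 nephritic arrays and Cth and Snx7 on 1. Ugt1a transcripts share most of their sequence. At ZT8 the same 15 genes differed by -0.14 (Abhd17c) to -1.99 (Cth), and at ZT0 by -1.35 (Ugt1a2) to -3.97 (Uqcrb).

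Several of these falls were seen by 1 probe more than by others of the same gene. Esd had 3 further probes, which differed by -0.30, -0.92 and -0.03, and the middle one passed. Both further probes of Slc17a3 fell, by 0.91 and 0.74, from young levels of 5.31 and 5.06, near background. Slc25a3 had a further probe, at 10.02 in the young group, which fell by 1.09. The 269 genes with at least 2-fold falls that had further detected probes had 367 of them. Of these, 276 were lower as well, 171 by at least 2-fold, and 18 were higher, and their median difference was -0.93 against -1.42 for the probes used. Rises showed the same spread: 159 of 282 further probes were higher, 84 by at least 2-fold, and 20 were lower. Over all genes with a further detected probe, 228 of 2520 had one that passed in the opposite direction.

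Respiratory chain and ATP synthase genes fell in 30 of 53 tested, against 23.2% of all genes, rose in 8 and did not pass in 15 (median -0.51, at ZT8 -0.27). The falls spanned complex I (Ndufb9, 9.11, 8.88, 9.03 and 9.42 on the young arrays and 5.31, 5.74 and 6.04 on the nephritic arrays), complex II (Sdhd, 8.10, 7.67, 7.85 and 8.02 on the young arrays and 4.77, 4.66 and 5.16 on the nephritic arrays) and ATP synthase (Atp5a1, 9.66, 9.46, 9.58 and 9.91 on the young arrays and 6.24, 6.41 and 6.82 on the nephritic arrays). All had every nephritic value more than 2 log2 units below the lowest young one. Those that rose were 7 complex I genes and Uqcrc1 of complex III, by 0.26 to 0.66, so subunits of 1 complex moved in opposite directions. Uqcrc1 measured 12.14, 12.30, 12.24 and 12.10 on the young arrays and 12.81, 12.79 and 12.61 on the nephritic arrays. Given the Pabpc1 term, 7 fell and 5 rose (median -0.14), and Uqcrb differed by -0.72, adjusted p = 0.243.

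The TCA cycle had the lowest median of any list, -0.84 (at ZT8 -0.41), with 13 of 20 genes lower and 2 higher, of which Ogdh, the first subunit of the oxoglutarate dehydrogenase complex, rose by 0.91. Mdh1, cytosolic malate dehydrogenase of the malate shuttle, measured 9.15, 8.89, 9.39 and 9.11 on the young arrays and 5.87, 5.86 and 6.76 on the nephritic arrays (-2.97 ± 0.38, adjusted p = 1.21e-07). Dld, the shared dehydrogenase subunit of the pyruvate and oxoglutarate complexes, measured 7.14, 6.86, 7.32 and 7.26 on young arrays and was below background on every nephritic one, at least 5.34-fold lower. Neither gene had overlapping groups. Fatty acid oxidation and peroxisomal genes fell in 13 of 38 and rose in 7, against 23.2% and 34% of all genes (median -0.12, at ZT8 -0.07). Catalase, Cat, measured 9.80, 10.15, 10.15 and 10.14 on the young arrays and 7.07, 7.45 and 7.44 on the nephritic arrays (-2.74 ± 0.43, adjusted p = 1.98e-06), and the thiolase Acaa2 differed by -2.74 ± 0.47, adjusted p = 9.35e-06. Of 3 further Acaa2 probes 2 differed by -2.79 and -2.81, and 1, at -0.42, did not pass. In the opposite direction Ppargc1a, the coactivator that drives mitochondrial biogenesis, rose, from 8.19, 8.67, 8.45 and 8.48 to 9.75, 9.87 and 9.68 (1.32 ± 0.24, adjusted p = 1.58e-05). The Pabpc1 term left 3 lower and 2 higher in the TCA cycle (median -0.27) and 3 lower and 5 higher in fatty acid oxidation (median 0.15).

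Amino acid and creatine metabolism fell in 19 of 35 genes and rose in 4 (median -0.64, at ZT8 -0.50), but in 2 each with the Pabpc1 term (median 0.19). Aldh6a1, of valine breakdown, measured 10.92, 10.68, 10.58 and 10.81 on the young arrays and 7.46, 7.47 and 8.01 on the nephritic arrays (-3.10 ± 0.56, adjusted p = 1.54e-05), and Glud1, glutamate dehydrogenase, measured 9.03, 9.27, 9.59 and 9.52 on the young arrays and 6.09, 5.86 and 7.21 on the nephritic arrays (-2.96 ± 0.44, adjusted p = 8.54e-07). Glud1 passed with the Pabpc1 term and Aldh6a1 did not, its difference turning to 0.32. Cholesterol synthesis fell in 11 of 18 and rose in 3 (median -0.59, at ZT8 -0.31). With the term 2 fell and 2 rose (median -0.56), or 9 and 2 at an unadjusted limma p under 0.05. Cyp51, a demethylase of the pathway, measured 10.44, 10.54, 10.68 and 10.65 on the young arrays and 7.58, 7.22 and 8.65 on the nephritic arrays, while Nsdhl, a later enzyme, and Insig1, the feedback regulator of the pathway, differed by -2.32 and -1.71. Of 3 further Nsdhl probes 1, at -0.25, did not pass. Hmgcs1, the enzyme of an early step, rose instead, from 12.86, 12.93, 12.93 and 12.77 to 13.76, 13.63 and 13.38 (0.72 ± 0.12, adjusted p = 5.27e-06). Cytochrome P450 and phase II genes fell in 14 of 37 and rose in 5, against 23.2% and 34% of all genes. Their median was -0.40, at ZT8 -0.20 and with the term -0.15, where 4 fell and 3 rose. The glutathione transferase Gsta2 differed by -2.68.

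Glycolysis and gluconeogenesis fell in 12 of 25 and rose in 6 (median -0.49, at ZT8 -0.18). With the Pabpc1 term 2 rose and 2 fell (median -0.12). Pck1, the key enzyme of gluconeogenesis, measured 7.01, 6.32, 6.43 and 6.96 on the young arrays and 4.97, 4.99 and 4.60 on the nephritic arrays (-1.82 ± 0.47, adjusted p = 0.00121), and the glucose transporter Slc2a2 (GLUT2) differed by -1.999 ± 0.29, adjusted p = 6.17e-07. Hk2, the hexokinase induced in proliferating and activated cells, rose, from 5.13, 5.73, 4.86 and 4.77 to 7.64, 6.59 and 6.39 (1.75 ± 0.45, adjusted p = 0.00131). Pfkp, the platelet-type phosphofructokinase, differed by -1.46 ± 0.17, adjusted p = 2.23e-08 at ZT4, by -0.28 at ZT8 and by -0.26 at ZT0, and passed the test of ZT4 against both times. Another Pfkp probe fell by 1.0.

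Nephron segments did not move alike. Of 27 proximal tubule markers 12 fell, against 23.2% of all genes, none rose and 15 did not pass (median -0.67, at ZT8 -0.41). Hao2, a peroxisomal oxidase, measured 10.93, 10.94, 11.22 and 11.23 on the young arrays and 7.89, 7.998 and 8.41 on the nephritic arrays (-2.98 ± 0.51, adjusted p = 8.53e-06), and the brush border protease Mep1a measured 8.78, 8.62, 8.78 and 8.83 on the young arrays and 5.94, 6.15 and 6.28 on the nephritic arrays (-2.63 ± 0.42, adjusted p = 2.90e-06). Slc6a19, the main neutral amino acid transporter, fell by 2.49, with nephritic replicate 3 at 9.32 and the others at 7.38 and 7.78. Slc34a1 did not pass (0.05 ± 0.15, adjusted p = 0.793), nor did the endocytic receptor Lrp2, whose probe was dim (-0.16 ± 0.18, adjusted p = 0.456). In the thick limb and distal tubule 7 of 16 fell and 1 rose (median -0.34, at ZT8 -0.25). Egf, made by the distal nephron, measured 12.18, 12.18, 12.25 and 12.33 on the young arrays and 9.47, 9.81 and 9.74 on the nephritic arrays (-2.56 ± 0.59, adjusted p = 3.77e-04), and the potassium channel Kcnj1 (ROMK) differed by -1.72 ± 0.28, adjusted p = 3.05e-06. Tmem52b, a membrane protein of the distal tubule, fell by 1.81 and did so more than at either ZT8 (-0.61) or ZT0 (0.16). Adding the Pabpc1 term, the proximal tubule median was 0.08 and no marker passed in limma (2 higher and 1 lower at an unadjusted p under 0.05), while the distal median was -0.16 and 1 fell.

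Collecting duct markers went both ways, 5 up and 4 down of 17, against 34% and 23.2% of all genes, with a median of 0.09 and of -0.17 at ZT8. Hsd11b2, which shields the mineralocorticoid receptor from cortisol-like steroids, differed by -0.93 ± 0.18, adjusted p = 5.52e-05 and the water channel Aqp3 by -0.89 ± 0.20, adjusted p = 2.20e-04, whereas the sodium channel subunit Scnn1b rose by 0.88. Aqp2, the vasopressin-regulated water channel, rose by 0.68 at ZT4 and differed by -0.26 at ZT8, which passed the test of ZT4 against ZT8. Its rise did not pass when blocked by title code (adjusted p = 0.077) or with the Pabpc1 term (0.31, adjusted p = 0.548). Hsd11b2 and Aqp3 were the 2 genes of the list that passed with that term, as lower. Podocyte markers were also mixed, 4 up and 4 down of 11 (median -0.09, at ZT8 -0.15), and 2 rose with the Pabpc1 term. Cdkn1c, a cell cycle inhibitor that mature podocytes keep, measured 10.53, 10.52, 10.54 and 10.52 on the young arrays and 12.02, 12.45 and 12.28 on the nephritic arrays (1.73 ± 0.20, adjusted p = 2.67e-08), and Nes, the intermediate filament nestin, measured 6.90, 6.96, 6.58 and 6.65 on the young arrays and 8.66, 8.62 and 8.29 on the nephritic arrays (1.75 ± 0.25, adjusted p = 5.85e-07). Both rises exceeded those at ZT8. Of the 4 falls, 2 were at least 2-fold. Cltrn (-2.75) is made mainly by tubules and not by podocytes, and Vegfa (-1.39) is also tubular. A further Vegfa probe, at 8.25 in the young group, differed by 0.04 and did not pass. The other falls and rises of the list were smaller than 2-fold and their genes are not named, so the falls were not confined to Cltrn and Vegfa. Endothelial markers rose in 6 of 18, close to the 34% of all genes, and fell in none, with medians of 0.32, -0.15 at ZT8 (1 up and 1 down) and 0.34 with the Pabpc1 term (1 up). Examples are Vwf, von Willebrand factor, at 1.27 ± 0.24, adjusted p = 3.55e-05 and Eng, endoglin, at 0.85 ± 0.21, adjusted p = 7.17e-04. With median scaling 4 of the 18 endothelial markers rose and 1 fell.

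Of 18 vasoactive and salt handling genes 6 rose and 5 fell, shares close to the 34% and 23.2% of all genes (median 0.15, at ZT8 -0.07). With median scaling 2 rose and 6 fell. The Pabpc1 term left 4 lower and none higher (1 at an unadjusted limma p under 0.05). Edn1, the vasoconstrictor endothelin-1, measured 6.14, 6.08, 5.97 and 6.04 on the young arrays and 8.05, 7.81 and 7.83 on the nephritic arrays (1.84 ± 0.56, adjusted p = 0.00496), and Cygb, a globin of fibroblast-like cells, measured 7.35, 7.82, 7.73 and 7.59 on the young arrays and 10.09, 10.11 and 10.26 on the nephritic arrays (2.53 ± 0.41, adjusted p = 4.20e-06), both without a call in the fit with that term (adjusted p = 0.599 and 0.0573). Ace, angiotensin-converting enzyme, was below background on all nephritic arrays and at 5.16, 5.46, 5.89 and 5.85 on young ones, at least 1.82-fold lower. Markers of tissue outside the kidney gave no common shift. Adipose markers rose and fell in 1 each of 10, with Pck1 the one that fell, and their mean log2 level was 6.31 to 7.94 on young and 6.26 to 6.94 on nephritic arrays. Liver and pancreas markers fell in 1 of 7, the carrier Ttr (-1.44 ± 0.31, adjusted p = 1.96e-04), and rose in none. Only 1 of the 12 adrenal markers was detected often enough to be tested and did not pass.

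The core clock differed at ZT4 in 8 of 17 tested genes, 4 up and 4 down, shares close to or below the 34% and 23.2% of all genes. Its median of -0.09 was 0.01 without background correction, so the list as a whole had no settled direction. Among the activators Arntl measured 5.98, 5.997, 5.75 and 6.28 on the young arrays and 4.77, 4.35 and 4.66 on the nephritic arrays (-1.41 ± 0.22, adjusted p = 2.77e-06) and was detected on 1 nephritic array. Npas2, near background, was detected on no nephritic array and at least 1.13-fold lower (-0.50 ± 0.18, adjusted p = 0.0159), a call lost without young replicate 2 or 3 or nephritic replicate 2 (adjusted p = 0.0534, 0.0514 and 0.0562) and without background correction. Clock, at 8.81 to 9.03 in young and 8.53 to 8.98 in nephritic kidneys, did not pass.

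**Figure D3:**
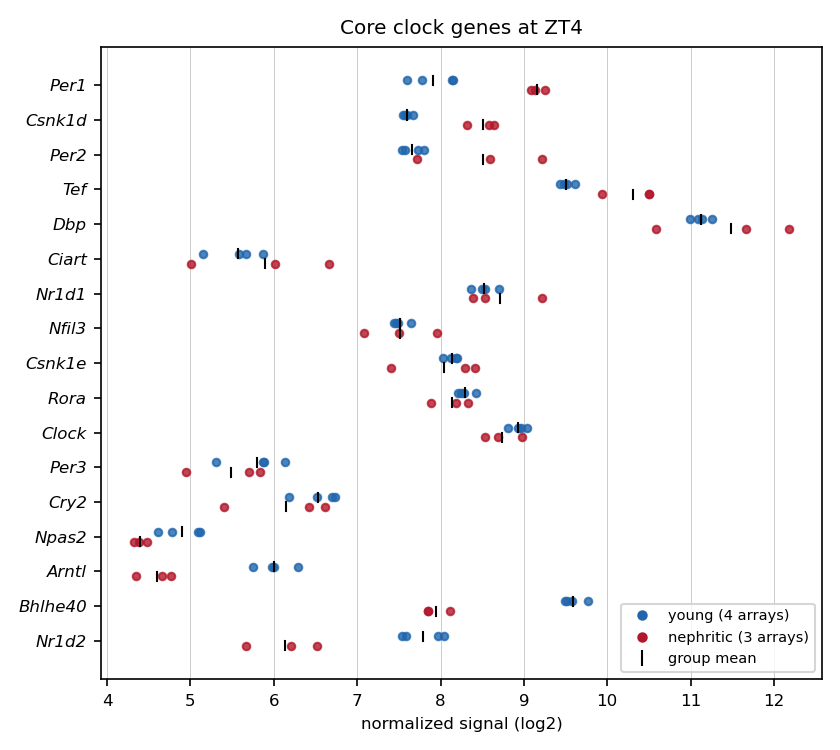
Normalized log2 signal (horizontal axis) of the 17 tested core clock genes at ZT4, ordered by their difference, with each dot 1 array, blue for the 4 young and red for the 3 nephritic kidneys, and black ticks for group means. Per1, at the top, and Nr1d2, at the bottom, do not overlap between groups, whereas Dbp runs from 10.59 to 12.18 among nephritic kidneys around a tight young group.

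Of the repressors, Nr1d2 (REV-ERB beta) measured 8.04, 7.54, 7.58 and 7.97 on the young arrays and 5.67, 6.52 and 6.21 on the nephritic arrays (-1.65 ± 0.31, adjusted p = 3.10e-05) and Bhlhe40 (DEC1) measured 9.49, 9.52, 9.58 and 9.77 on the young arrays and 7.85, 7.85 and 8.12 on the nephritic arrays (-1.65 ± 0.26, adjusted p = 3.00e-06). Per1, in contrast, rose, from 7.59, 7.78, 8.15 and 8.14 to 9.09, 9.14 and 9.26 (1.25 ± 0.32, adjusted p = 0.00104), and another probe rose by 1.59. Per2 measured 7.80, 7.53, 7.58 and 7.73 on the young arrays and 7.72, 9.22 and 8.60 on the nephritic arrays (0.85 ± 0.33, adjusted p = 0.0276). Groups did not overlap for Nr1d2, Bhlhe40 or Per1, whereas nephritic replicate 1 of Per2 lay among the young values. Per2 lost its call without young replicate 2 or 3 or nephritic replicate 2 or 3 (adjusted p = 0.0545, 0.0516, 0.258 and 0.069), its difference being 0.50 without nephritic replicate 2. Nr1d1 (0.19 ± 0.33, adjusted p = 0.637), Per3 (-0.31 ± 0.31, adjusted p = 0.396) and Cry2 (-0.39 ± 0.23, adjusted p = 0.147) did not pass, nor did Ciart, Rora or Nfil3. Cry2 passed as lower without nephritic replicate 3 (adjusted p = 0.0344).

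Among the outputs and regulators, Tef, a PAR bZIP factor like Dbp, measured 9.52, 9.61, 9.48 and 9.43 on the young arrays and 9.94, 10.51 and 10.50 on the nephritic arrays (0.80 ± 0.24, adjusted p = 0.0051), though another, dim probe differed by 0.05. Dbp itself measured 10.99, 11.14, 11.26 and 11.09 on the young arrays and 10.59, 12.18 and 11.67 on the nephritic arrays and did not pass (0.36 ± 0.32, adjusted p = 0.339), but did without nephritic replicate 1 (0.81, adjusted p = 0.043). Replicate 1 was the lowest nephritic kidney for Per2, Dbp, Tef, Ciart and Nr1d2. Csnk1d, the kinase that marks PER proteins for decay, rose by 0.92, and 2 of its 4 further probes rose, by 0.94 and 0.53. Csnk1e, its close relative, read differently by probe: the one used was at -0.09 and did not pass, and the other rose by 1.51. Of 17 clock output and glucocorticoid response genes 8 rose and 4 fell (median 0.47, at ZT8 0.25), or 3 and 2 with the Pabpc1 term. The clock output Nampt, the rate-limiting enzyme of NAD salvage, measured 6.74, 6.66, 6.62 and 6.82 on the young arrays and 4.47, 4.94 and 4.72 on the nephritic arrays (-1.998 ± 0.40, adjusted p = 5.97e-05), turning to 0.37 with that term, and Fkbp5, a glucocorticoid-induced chaperone, measured 6.60, 6.24, 6.14 and 6.24 on the young arrays and 6.74, 8.29 and 7.25 on the nephritic arrays (1.13 ± 0.30, adjusted p = 0.00149), a call lost without nephritic replicate 2 (adjusted p = 0.0587).

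Of the 17 core clock genes 4 passed the test of ZT4 against ZT8. Arntl differed by 0.01 there, Bhlhe40 by -0.24, Per2 by -0.54 and Tef by -0.20, and these were the 4. Blocked by title code, 1 of all 9708 genes passed that test, and Per2, Tef and Npas2 also lost their calls at ZT4 (adjusted p = 0.175, 0.0728 and 0.128). Per1 differed by 0.22 at ZT8, which did not pass against ZT4 (adjusted p = 0.0866), and by -0.37 at ZT0, which did. With the Pabpc1 term Per1 was at 2.31 and passed, as did Npas2, and Arntl, Nr1d2, Bhlhe40, Per2 and Tef did not. CLOCK and ARNTL bind the E-box CACGTG, and the promoters of the named clock genes that hold it and rose are shown. It was present in 3 of 14 core clock genes with a RefSeq promoter (21.4%) against 8.09% of all genes with one and 7.15% of all promoters, in the 2 genes with a promoter that rose, in 0 of 3 that fell and in 1 of 9 that did not pass. The E-box is in capitals in the 250 bases before the start, on the strand of the gene.
Per1 (chr11:69098699-69098948, plus strand): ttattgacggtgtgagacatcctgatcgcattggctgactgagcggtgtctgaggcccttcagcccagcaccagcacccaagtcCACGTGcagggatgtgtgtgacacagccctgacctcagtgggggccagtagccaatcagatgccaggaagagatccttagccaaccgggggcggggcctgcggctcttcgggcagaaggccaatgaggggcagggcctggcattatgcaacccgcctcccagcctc
Tef (chr15:81811164-81811413, plus strand): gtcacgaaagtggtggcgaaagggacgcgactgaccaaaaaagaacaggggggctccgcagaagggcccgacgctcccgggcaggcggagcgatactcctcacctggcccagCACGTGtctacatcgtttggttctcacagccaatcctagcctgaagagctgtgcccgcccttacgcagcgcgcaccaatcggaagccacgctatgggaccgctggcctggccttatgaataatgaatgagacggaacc
Another Tef start also had 1. The absence of the letters from a window says nothing of other sites of these genes.

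Among genes that handle mRNA more fell than rose. Of 33 mRNA-binding and translation factors 18 fell and 7 rose (median -0.44, at ZT8 -0.05). Eif3c, a subunit of the initiation complex eIF3, measured 7.87, 8.43, 8.57 and 8.51 on the young arrays and 5.85, 5.92 and 6.43 on the nephritic arrays (-2.28 ± 0.25, adjusted p = 7.61e-09), and the elongation factor Eef2 measured 8.18, 9.11, 9.41 and 9.55 on the young arrays and 6.996, 6.67 and 7.68 on the nephritic arrays (-1.95 ± 0.37, adjusted p = 3.71e-05). Both fell on every nephritic array, and 2 further Eef2 probes fell by 1.80 and 1.94. Eif3d, of the same complex as Eif3c, rose by 0.97. The Pabpc1 term left 14 of the list lower and 1 higher. Among the genes farthest from their ZT8 difference were Med28, a Mediator subunit (-3.12 ± 0.40, adjusted p = 1.31e-07), Ptma, prothymosin alpha (-3.03 ± 0.44, adjusted p = 7.09e-07), and Zc3h15, a zinc finger protein (-3.10 ± 0.38, adjusted p = 5.55e-08).

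Cytosolic ribosomal proteins went both ways. Of 43 tested 17 fell and 9 rose, against 23.2% and 34% of all genes. Their median was 0.00, or -0.07 with median scaling, where 18 fell and 6 rose. Rps3 measured 11.75, 11.65, 11.67 and 11.44 on the young arrays and 10.49, 9.90 and 10.51 on the nephritic arrays (-1.33 ± 0.14, adjusted p = 5.26e-09), and Rpl7a measured 10.66, 10.62, 10.81 and 11.05 on the young arrays and 9.31, 9.11 and 9.16 on the nephritic arrays (-1.59 ± 0.16, adjusted p = 2.37e-09). Rps7 and Rps6 fell by 1.51 and 1.21. These genes barely differed at ZT8 (Rps3 -0.06, Rpl7a -0.23), and 17 of the 43 were further down at ZT4 than at ZT8, none further up, against 7.8% and 8.15% of all genes. Rps3, Rps6 and Rps7 were also lower than at ZT0. On replicate 3 at ZT16 and at ZT20, where Pabpc1 was low, Rps3 stood at 11.29 and 11.41, in the range of the other nephritic arrays of those times. With the Pabpc1 term, which was estimated from the nephritic arrays of those times only, 15 of the list fell and none rose. The part of low Pabpc1 in the falls at ZT4 was not tested otherwise. Another Rps3 probe fell by 2.97. Ribosomal protein genes have many processed copies, which a probe may share.

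**Figure D4:**
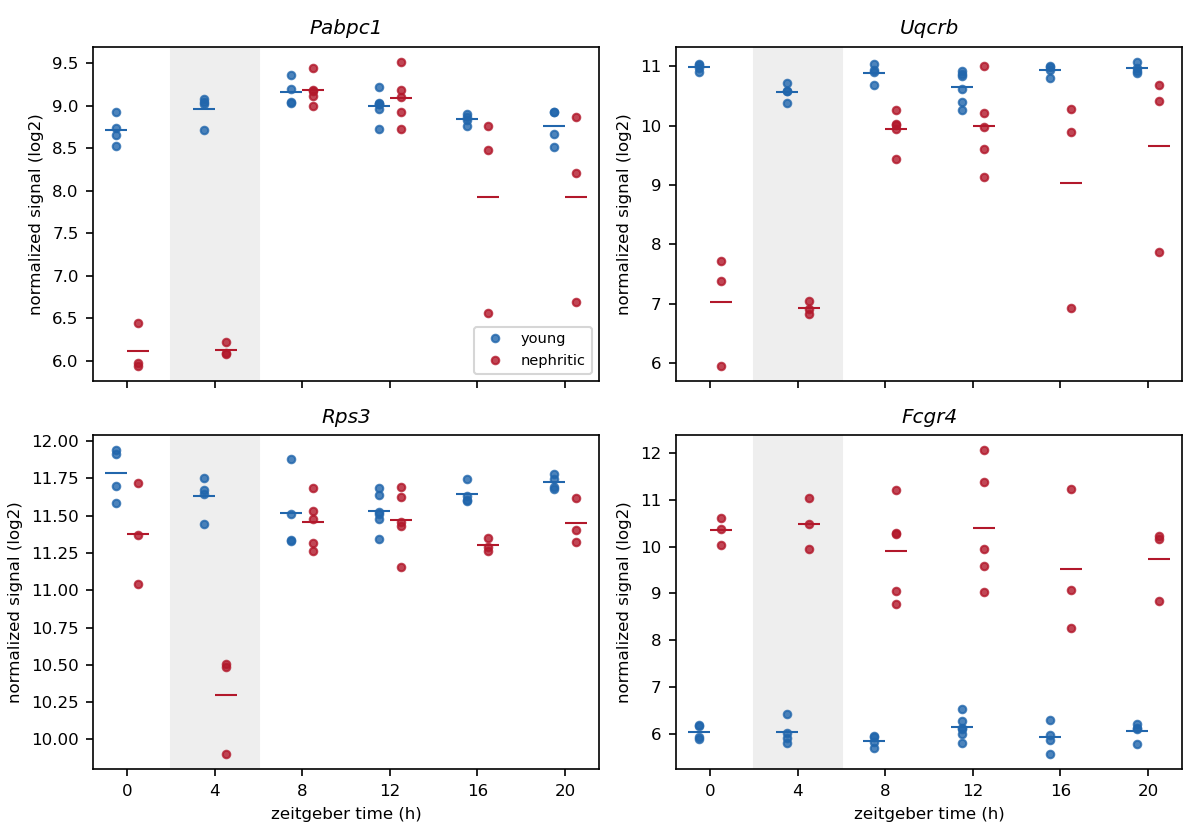
Normalized log2 signal (vertical axes) of Pabpc1, Uqcrb, Rps3 and Fcgr4 on all 48 arrays against zeitgeber time in hours (horizontal axis), young in blue and nephritic in red, with a dash for each group mean and ZT4 shaded. Pabpc1 and Uqcrb are low on the same 8 nephritic arrays, Rps3 is low at ZT4 alone (9.90 to 10.51), and Fcgr4 is high in nephritic kidneys throughout.

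Protein folding and degradation genes were mixed, beside 34% of all genes that rose and 23.2% that fell. Heat shock and folding genes fell in 12 of 27 and rose in 5 (median -0.04, at ZT8 -0.05), and 1 fell with the Pabpc1 term. The mitochondrial chaperonin Hspd1 measured 11.21, 10.77, 10.96 and 11.04 on the young arrays and 8.11, 8.39 and 9.10 on the nephritic arrays, and its partner Hspe1 9.33, 8.78, 9.11 and 9.42 on the young arrays and 5.73, 6.25 and 6.56 on the nephritic arrays, a fall of 2.46 and 2.98 with no overlap. Another Hspd1 probe fell by 3.06. Proteasome genes fell in 10 of 27 and rose in 7 (median -0.01, at ZT8 0.05), or 4 and 3 with the term, and Psmb7, a catalytic subunit, fell from 10.85, 10.84, 11.18 and 11.25 to 8.45, 8.34 and 9.56 (-2.25 ± 0.27, adjusted p = 4.12e-08). Further Psmb7 probes fell by 1.25 and differed by -0.25, the last not passing.

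The difference at ZT4 was compared over all genes with that at ZT8, between 5 nephritic and 4 young arrays. At ZT8, 1443 genes were higher (14.9%) and 1013 lower (10.4%). The difference at ZT4 exceeded that at ZT8 for 791 genes (8.15%) and fell below it for 757 (7.8%). Without nephritic replicate 2 at ZT4 the sum of both, 1548, became 794, and with the Pabpc1 term 182. Blocked by title code, 1 gene passed. No title code of the nephritic ZT4 arrays was used at ZT8, and the young arrays had another code at each of these times, so code and time cannot be told apart.

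**Figure D5:**
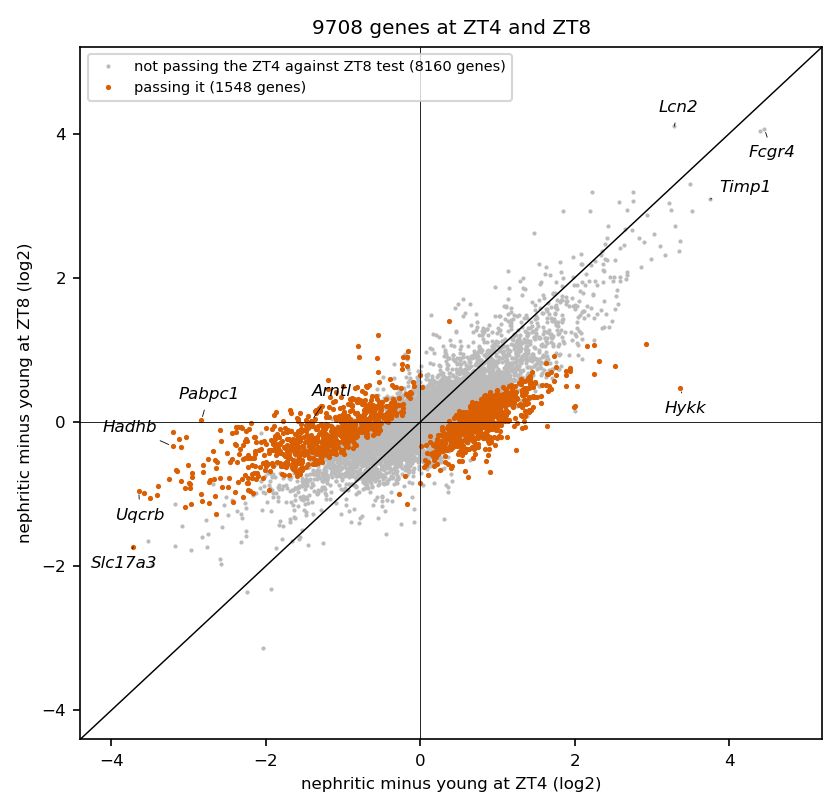
Nephritic minus young on the log2 scale at ZT4 (horizontal axis) and at ZT8 (vertical axis) for 9708 genes, with 1548 that passed the test of the difference between the times in orange, 8160 others in gray and the line of equality. Fcgr4, Lcn2 and Timp1 lie near the line, while Pabpc1 fell at ZT4 and lies near 0 at ZT8 (0.02), and Hadhb and Uqcrb differed by -0.34 and -0.95 there, neither passing.

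None of the 19 myeloid, 11 T cell, 6 B and plasma cell and 18 chemokine genes passed this test, which does not show that their differences were equal. The same held for the 20 genes of the NF-kB list and the 5 neutrophil markers. Of 30 interferon-stimulated genes 4 lay below their ZT8 difference and 1 above. Below it lay also 1 of 12 complement, 1 of 10 MHC class II and 1 of 14 class I and immunoproteasome genes. Some metabolic lists had more below than above, where all genes had 7.8% below and 8.15% above. The counts were 9 against 5 of 53 for mitochondrial respiration, 6 against 2 of 20 for the TCA cycle and 7 against 0 of 35 for amino acid metabolism. For fatty acid oxidation they were 7 against 2 of 38 and for cytochrome P450 and phase II 4 against 1 of 37. Others were even or nearly so, with 3 against 2 of 25 for glycolysis and gluconeogenesis and 1 against 1 of 18 for cholesterol synthesis. Amino acid and organic ion transport had 2 against 2 of 30. As a description, since they were chosen by their size at ZT4, the 856 genes with at least 2-fold falls had a median of -1.45 at ZT4, -0.50 at ZT8 and -1.26 at ZT0. Their counterparts, the 830 with 2-fold rises, had 1.32, 0.82 and 1.14. The largest single gaps to ZT8 among named genes were those of Abhd17c (-3.07), Hykk (2.90), Med28 (-2.88), Hadhb (-2.87) and Pabpc1 (-2.85).

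Among the rises Hykk stood farthest from ZT8. It measured 5.74, 5.43, 5.82 and 5.02 on the young arrays and 8.51, 9.06 and 9.05 on the nephritic arrays, and the rise of 3.37 ± 0.35, adjusted p = 4.00e-09 was 2.90 above that at ZT8 and 1.79 above that at ZT0, both passing. It stayed at 3.35 with the Pabpc1 term. Nephritic arrays low in Pabpc1 at the other times had Hykk between 6.86 and 7.59, below all 3 nephritic values at ZT4. At ZT0, where all nephritic arrays were low in Pabpc1, the nephritic mean was 7.35 against 5.78 in young kidneys. Where none was low, the means were 6.25 against 5.78 (ZT8) and 6.30 against 6.30 (ZT12). With 1 low array each, they were 7.24 against 5.92 (ZT16) and 6.60 against 5.95 (ZT20). The part of low Pabpc1 in the Hykk rise was not tested otherwise.

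Against ZT0, where all 3 nephritic arrays were likewise low in Pabpc1, fewer genes stood apart: 57 above (0.587%) and 115 below (1.18%). The sum of 172 depended on single libraries, being 60, 69 and 87 without young replicate 4, 2 or 3, 17 and 6 without nephritic replicate 1 or 2, and 557 without nephritic replicate 3. Per1, Tef, Hykk, Pfkp, Tmem52b and the 3 Rps genes above were among them.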

How the data were processed

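Kidney RNA was hybridized to Illumina MouseRef-8 v2.0 bead arrays, which the authors scanned and extracted with GenomeStudio (per the labels, version not stated). The deposited intensities were the average bead signals per probe, not normalized, each with a detection p-value that the authors' software computed per probe and array. The deposited table of processed intensities, quantile-normalized by the authors on a linear scale with its software not stated, was used only as an alternative. Every column of values was mapped to a sample (0 were left unused).

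Signals of all 48 arrays were background-corrected and quantile-normalized with neqc of limma 3.58.1 in R 4.3.3 (offset 16, log2). Of 25697 probes, 23978 had 1 gene symbol and 1719 none. Probes detected (detection p under 0.05) on at least 3 of the 7 ZT4 arrays numbered 13930, and the probe with the highest mean stood for each of 9708 genes. limma fitted 12 group means over the 48 arrays (36 residual degrees of freedom, mean-variance trend), with Benjamini-Hochberg adjustment at 0.05. The study names a Mann-Whitney test, which cannot pass 0.05 with 3 against 4 arrays and is given as counts of genes without overlap. The procedure was tested on simulated data with known changes, drawn with independent noise and, for each gene, the same spread on every array. The simulation held no shared effect of title code and no arrays low in Pabpc1, so it cannot judge the part of either in the calls. Where a gene was below background on every array of a group, the fold is a bound, the bright mean against the higher, per array, of the lowest detected signal and the probe's own.

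The members and gene lists were chosen with earlier results of these data known. Named genes were the 15 largest rises and falls without overlap, up to 4 passing genes of each list with the largest differences, all core clock genes, Pabpc1 and the 10 genes farthest from ZT8. Cfb, Cd55, Gbp3, Parp12, Ddx58, Col4a3, Tyms, Ogdh, Ttr, Ppargc1a, Hmgcs1, Ace, Eif3d, Cit, Uqcrc1, Slc34a1, Lrp2, Umod and Aqp2 were added after their values were seen. The arrays' number limits the precision. Alternatives changed the background correction, scaling, detection filter, probe choice, samples in the fit, weights, title code as a random block, a term for arrays low in Pabpc1, and each ZT4 array left out. The chip was not used as a block, since the headers name none.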

Additional observations from a re-analysis of the deposited data

Results flagged for a closer look

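Among the 4 young arrays at ZT4, 1 array stood far from the others for 7 of 144 named genes, by a gap that chance gives in about 1 of 20 groups. The array far from the rest, not always the same one, was the lowest for Timp1 (4.498), Plscr2 (8.74), Cat (9.80) and Pabpc1 (8.72), and the highest for Cxcl13 (4.39), Acta2 (10.35) and Mcm7 (4.74), all log2 levels. Groups of 3 arrays were not examined in this way.

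The difference between nephritic and young kidneys at ZT4 was not that at ZT8 for 1548 genes, of which 53 are named, by limma's test of the difference of differences. Values here are the difference at ZT4 minus that at ZT8 (log2). For genes of metabolism and transport they were -1.98 (Slc17a3), -2.59 (Slc7a12), -2.44 (Esd), -2.51 (Slc25a3), -2.87 (Hadhb), -1.61 (Cat), -1.91 (Acaa2), -1.84 (Mdh1), -1.85 (Dld), -1.13 (Insig1), 0.46 (Hmgcs1), -2.28 (Aldh6a1), -1.45 (Slc2a2), -1.18 (Pfkp), -2.06 (Hao2), -2.07 (Mep1a), 0.81 (Ogdh), 2.90 (Hykk) and -2.24 (Cltrn). For the respiratory chain and ATP synthase they were -2.69 (Uqcrb), -2.39 (Ndufb9), -2.50 (Atp5a1), -1.86 (Sdhd) and 0.64 (Uqcrc1). For immune and interferon genes they were -1.53 (Cfb), -1.46 (Parp12) and -1.19 (Ddx58). For cell division, glomerular, vascular and duct genes they were 1.17 (Mcm7), 1.59 (Cit), 1.15 (Cdkn1c), 0.999 (Nes), 0.84 (Eng), -1.19 (Tmem52b) and 0.94 (Aqp2). For translation and protein folding or degradation they were -1.36 (Rpl7a), -1.27 (Rps3), -1.39 (Rps7), -1.29 (Rps6), -1.54 (Eif3c), -2.85 (Pabpc1), -1.90 (Hspd1), -2.11 (Hspe1) and -1.40 (Psmb7). For the clock they were -1.42 (Arntl, near background in both groups at ZT8), 1.39 (Per2), -1.41 (Bhlhe40) and 1.005 (Tef). For the remaining genes they were -2.46 (Plscr2), -3.07 (Abhd17c), -2.46 (Snx7), -2.88 (Med28), -2.83 (Ptma) and -2.75 (Zc3h15). The 3 nephritic arrays of ZT4 were low in Pabpc1 and the 5 of ZT8 were not, and title codes differed between the times, so neither can be told apart from the hour.

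Against ZT0, 172 genes differed in the same test, 9 of them named. The difference at ZT4 minus that at ZT0 was 1.79 (Hykk), 1.36 (Cit), -1.96 (Tmem52b), -1.20 (Pfkp), -0.93 (Rps3), -1.12 (Rps7), -1.12 (Rps6), 1.61 (Per1) and 1.46 (Tef). Here all nephritic arrays of both times were low in Pabpc1. The count depended on single arrays, with 6 genes without nephritic replicate 2 and 557 without nephritic replicate 3.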

How the results depend on the processing

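The counts at ZT4 (3298 higher and 2251 lower) ranged from 2501 to 3559 and from 1763 to 2870 over the alternatives in background correction, scaling, detection filter, probe choice, samples in the fit, weights and test, and from 2718 to 3171 and from 1932 to 2165 with 1 array left out. Blocked by title code they were 2033 and 1497, all of them among the genes called without it, and with the term for arrays low in Pabpc1 they were 726 and 680. The 1548 genes that differed between ZT4 and ZT8 became 1 when arrays were blocked by title code, 182 with the Pabpc1 term and 794 (without nephritic replicate 2) to 1739 with 1 array left out. The 172 that differed between ZT4 and ZT0 became 668 with median scaling, 82 with no detection filter, 85 with weights per diagnosis, 1 with only the arrays of the times compared, 1 when arrays were blocked by title code, and 6 to 557 with 1 array left out. The causes were not tested.

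Of 144 named genes, 77 lost their call with the Pabpc1 term and 5 changed sign there, to 0.47 (Cfb), 0.32 (Aldh6a1), 0.43 (Pck1), 0.37 (Nampt) and 0.019 (Cd55). Some that lost their call kept a large difference, such as Ugt1a2 (-2.59), Timp1 (1.91), Cd8b1 (1.77) and Cygb (1.66). Others came close to no difference, such as Mep1a (-0.03) and Vegfa (-0.02). Blocked by title code 6 lost their call (Acta2, Npas2, Per2, Tef, Cd55 and Aqp2). Csnk1e turned to 1.21 without background correction, 1.19 with median scaling and 1.21 with the processed values, where another of its probes had the highest mean. Median scaling moved the median of all genes from 0.14 to 0.03 and the share of higher genes among those called from 59.4% to 50.4%, with 0 genes called in opposite directions. The size and order of list medians depended on background correction. Without it the median of interferon-stimulated genes went from 0.74 to 0.35 and that of chemokines from 1.36 to 0.72. MHC class II genes went from 1.39 to 1.03 and then had the highest median of all lists. No paired analysis was possible because young and nephritic kidneys came from different mice. A probe below background has only a bound, which limits 254 of the genes that fell and 72 of those that rose.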

Other observations

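Cit, which encodes citron kinase of cytokinesis and belongs to none of the lists, had the smallest adjusted p of all genes at ZT4 (5.95e-14, limma). It was below background on every young array and measured 6.53, 6.96 and 6.42 on the nephritic arrays, at least 4.06-fold higher. The difference was 2.25 at ZT4, 0.66 at ZT8 and 0.89 at ZT0, and 2.21 with the term for arrays low in Pabpc1.

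Of the genes that passed, 254 had no nephritic array above background at ZT4 and 72 had no such young array. Among the falls were Id4, an inhibitor of basic helix-loop-helix factors, at least 6.01-fold lower, Adam9, a membrane-bound protease, at least 5.25-fold lower, Mccc1 of leucine breakdown, at least 4.82-fold lower, and Dctn1, a subunit of the dynactin motor complex, at least 4.27-fold lower. Among the rises Fcrls, a microglia and macrophage gene of the Fc receptor-like family, was at least 4.45-fold higher. These genes were chosen by their size after the values were seen.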
